A study of Mus musculus with 12 samples.

Results

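The genes followed here are Ly6a, Ly6c1, Ly6c2, Ly6e, Ly6g and Cd177, 5 genes of the Ly6 family and 1 gene for a relative that carries the same kind of membrane anchor. They were listed by name, and all 6 of 6 were found among the 27179 genes counted and passed the filter on low counts that left 12057 genes for testing. The RNA came from AML246, a mouse acute myeloid leukemia of normal karyotype that is p53-/- and carries shPU.1, a hairpin RNA against the transcription factor PU.1 that is expressed together with GFP. Leukemic cells were taken from the bone marrow of C57BL/6 recipients and sorted by GFP. All 12 deposited files are also named Rag1-/-, a deletion that leaves mice without mature T and B cells of their own, and the labels do not say whether this is the genotype of the recipients. The 4 groups had 3 libraries each. Untreated cells were sorted as GFPhigh, cells after 2 days of doxycycline (Dox) as GFPhigh-mid, cells after 4 days as GFPmid and cells after 6 days as GFPlow. Dox shuts the hairpin off, and PU.1 returns over the days. Gate and duration of treatment cannot be told apart, and neither can an effect of Dox itself and the shutdown of the hairpin, since all groups carried the hairpin and the p53 deletion. AML246 is 1 leukemia. The titles name technical replicates and the design names triplicate mice, so p-values cover only the variation among these libraries, part or all of which may be technical.

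Ly6 proteins are small, cysteine-rich proteins that fold into the three-finger shape of the Ly6/uPAR family, and most are held on the cell surface by a glycosylphosphatidylinositol (GPI) anchor. In mouse bone marrow they serve as flow cytometry markers. Ly6a encodes Sca-1, used to mark stem and progenitor cells and also made by T cells and endothelium. Ly6c1 and Ly6c2 encode Ly-6C, high on inflammatory monocytes and present on granulocyte precursors, and Ly6g encodes Ly-6G, the usual mouse neutrophil marker. Ly6e is expressed broadly and is induced by interferon. Cd177 encodes a GPI-anchored glycoprotein of neutrophils that binds PECAM1 on endothelium.

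The Ly6 genes lie together on chromosome 15 (GRCm38, mm10). Ly6e is at chr15:74955025-74959904, Ly6a at chr15:74994877-74998031, Ly6c1 at chr15:75044018-75048920, Ly6c2 at chr15:75108161-75112066 and Ly6g at chr15:75155261-75159128. Cd177 is on another chromosome, at chr7:24743983-24760334. The coding sequences of Ly6c1 and Ly6c2 were identical at 387 of 396 aligned bases (97.7%). Ly6a and Ly6g were identical at 83.2% of aligned bases, Ly6a and Ly6c2 at 81.7% and Ly6c2 and Ly6g at 78.3%, while Ly6e shared 50.5% to 53.8% with the other members. Likeness between copies bears on the counts. Of the 50-base windows of the longest coding transcript, 36.7% in Ly6c1, 33% in Ly6c2, 10% in Ly6a, 5.74% in Cd177, 0.448% in Ly6g and 0% in Ly6e were also found in a transcript of another gene. How reads that fit several genes were handled is not given in the sources used here.

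Promoters are shown for Ly6c1, Ly6c2, Ly6g and Cd177, because PU.1 is the factor the study restored and because the alike promoters of Ly6c2 and Ly6g belong to genes that moved in opposite directions. The sequences are from RefSeq (GRCm38.p6), run 5′ to 3′ along the gene and cover 250 bases before to 50 after an annotated start. Capitals mark GAGGAAGT, a purine-rich sequence of the kind bound by PU.1 and other ETS factors, searched on both strands. RefSeq gave a window for 4 of the 6 members, and none for Ly6a or Ly6e. The windows are chr15:75048614-75048913 (minus strand) for Ly6c1, chr15:75111922-75112221 (minus strand) for Ly6c2, chr15:75155079-75155378 (plus strand) for Ly6g and chr7:24760262-24760561 (minus strand) for Cd177.
Ly6c1: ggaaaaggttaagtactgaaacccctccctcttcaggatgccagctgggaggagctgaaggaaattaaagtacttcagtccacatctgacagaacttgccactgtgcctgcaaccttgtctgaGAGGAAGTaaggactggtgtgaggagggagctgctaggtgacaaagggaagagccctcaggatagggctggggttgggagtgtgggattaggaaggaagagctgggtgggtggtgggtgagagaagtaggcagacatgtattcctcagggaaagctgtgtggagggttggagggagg
Ly6c2: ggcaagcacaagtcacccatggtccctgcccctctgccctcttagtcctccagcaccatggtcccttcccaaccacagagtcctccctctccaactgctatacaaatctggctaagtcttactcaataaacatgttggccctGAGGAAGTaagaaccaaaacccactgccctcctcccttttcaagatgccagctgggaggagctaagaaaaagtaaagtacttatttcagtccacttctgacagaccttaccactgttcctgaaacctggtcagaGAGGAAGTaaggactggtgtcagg
Ly6g: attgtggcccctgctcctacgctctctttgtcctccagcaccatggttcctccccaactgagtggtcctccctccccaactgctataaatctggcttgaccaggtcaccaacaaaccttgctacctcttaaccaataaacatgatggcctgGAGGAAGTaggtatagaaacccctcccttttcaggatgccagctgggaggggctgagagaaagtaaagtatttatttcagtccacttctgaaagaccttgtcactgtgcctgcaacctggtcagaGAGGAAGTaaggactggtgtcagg
Cd177: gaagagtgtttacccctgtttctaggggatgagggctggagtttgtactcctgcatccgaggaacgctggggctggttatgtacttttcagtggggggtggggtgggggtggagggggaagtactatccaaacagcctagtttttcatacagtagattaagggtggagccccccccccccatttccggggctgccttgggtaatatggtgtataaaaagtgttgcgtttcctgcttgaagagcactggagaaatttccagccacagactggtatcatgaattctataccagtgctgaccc
GAGGAAGT was found at positions -108 and 27 from the start of Ly6c2, at -99 and 27 of Ly6g and at -127 of Ly6c1, and these letters were not in the Cd177 window. It stood in 3.2% of all 32851 promoter windows of the same length. The other windows annotated for these 3 Ly6 genes, at other starts, overlap those shown. Their matches, 2 for Ly6c2 and 1 for Ly6g, are letters already marked above, counted from another start. The other Ly6c1 window had 0, as it ends within the marked letters. The shorter ETS core AGGAAG, which lies inside GAGGAAGT, stood in 35.4% of all windows. In the windows shown it was found 3 times in Ly6c1, 2 times each in Ly6c2 and Ly6g and 0 times in Cd177. The matches at -38 and -34 of Ly6c1 lay outside GAGGAAGT. TTCNNNGAA, the letters of the gamma-activated site, stood in 8.3% of all windows and the interferon-stimulated response element in 3.44%. Neither was in a window of these 4 members, on either strand. Ly6a and Ly6e, without a window, were not searched. The Ly6c2 and Ly6g windows were identical at 72.5% of aligned bases. A match is a description of the letters, and binding was not measured here.

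The libraries held 4918920 to 7356166 counts. Spi1, the gene of PU.1 and the target of the hairpin, had 54.2, 67.5 and 65.9 CPM (the count scaled to library size with TMM factors) in the untreated libraries, 107, 98.8 and 123 on day 2, 244, 267 and 270 on day 4 and 497, 439 and 438 on day 6, with no overlap between any of the groups. The change passed at each time. In untreated cells 10 early myeloid genes summed to 29940 to 33650 CPM, which accords with the label of a myeloid leukemia. Most of this was Mpo (mean 18038 CPM), Elane (5072), Ctsg (4312) and Prtn3 (1877). The others had means of 14.4 (Ptprc) to 718 CPM (Myb). On day 6 the libraries differed from each other. Replicate 2 had a variance against replicates 1 and 3 that was 44.1 and 38.4 times counting error, while all other pairs of replicates had 2.62 to 10.5. In day 6 replicate 2, 21 mature neutrophil genes summed to 95430 CPM against 185400 and 166200 in replicates 1 and 3. Its 15 monocyte genes summed to 10420 CPM against 4601 and 5155. Its 9 T cell genes summed to 59.5 CPM (370 counts, of which 129 were Lck and 71 Cd8a) against 9.81 and 7.42 CPM. Of the other lineages, genes of B cells, red cells, megakaryocytes and NK cells summed to at most 35.0 CPM in any library. The 8 eosinophil genes summed to 22.1 to 52.8 CPM in untreated cells, 11.4 to 193.7 on day 2, 61.7, 1070 and 566 on day 4 and 110.1 to 216.5 on day 6, and 7 of 8 were called higher on day 4. The 7 stromal genes summed to 175.8 to 284.7 CPM in untreated cells and 9.76 to 14.6 on day 6, nearly all of it Pdgfrb and Cxcl12. The part of these cells in the members' levels was not tested.

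Of the 6 members, Cd177 alone passed the test after 2 days, 3 passed after 4 days and 5 after 6 days. On day 2 the count was 1 of 6 (higher), where 1.45% of all 12057 genes were called, 1.05% higher and 0.406% lower. On day 4, Cd177 and Ly6e were higher and Ly6c1 was lower, where 42.4% of all genes were called, 22.1% higher and 20.2% lower. On day 6, Ly6g, Cd177, Ly6a and Ly6e were higher and Ly6c2 was lower, where 67.9% of all genes were called, 35.0% higher and 32.9% lower. On days 4 and 6 the counts of members called were thus near the share of all genes, and the size and time of each change follow for every member. The median log2 fold change of the 6 was -0.31 on day 2, 1.23 on day 4 and 1.45 on day 6, beside -0.0038, -0.015 and -3e-04 for all tested genes. The middle 90% of all genes on day 6 ran from -2.06 to 2.60, so that the changes of Ly6g and Cd177 lay outside this range and those of the other 4 members inside it. The libraries of day 2 and untreated did not overlap for 1 of 6 members (24.7% of all genes), those of day 4 for 3 of 6 (58.3%) and those of day 6 for 5 of 6 (68.2%). The 3 comparisons share the untreated libraries. Fewer cells of a type and less RNA per cell cannot be told apart in bulk RNA.

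**Figure D1:**
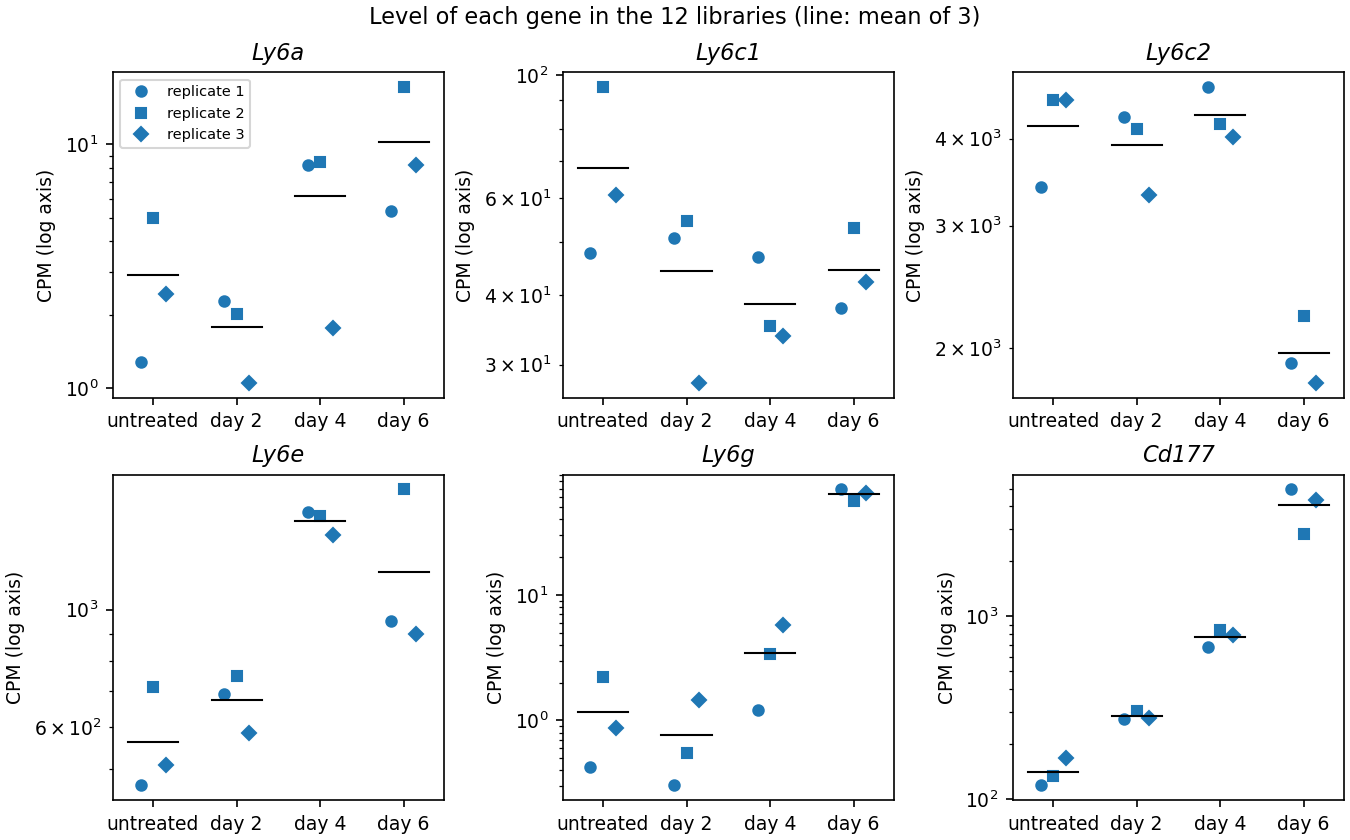
Level of each member in CPM (log axes with different ranges) in the 12 libraries, grouped by time on Dox; symbols mark the replicate and lines the mean of 3. Cd177 stepped up at every time, Ly6g stood at 56.1 to 69.3 CPM in the day 6 libraries alone, and Ly6c2 was lower on day 6 than in all other libraries.

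Cd177 rose at every step and was the earliest of the members to change. It measured 119, 134 and 168 CPM in the untreated libraries, 273, 304 and 280 on day 2, 678, 841 and 792 on day 4 and 4956, 2830 and 4342 on day 6. Every library of a later group was above every library of the group before it. Against untreated its log2 fold change was 1.03 ± 0.19 (SE) on day 2 (adjusted p = 0.0207), 2.46 ± 0.19 on day 4 (adjusted p = 2.16e-06) and 4.85 ± 0.22 on day 6 (adjusted p = 6.56e-09), the last a 28.8-fold rise. From day 2 to day 4 it rose by 1.43 ± 0.19 (adjusted p = 0.000245), where 25.2% of all genes were called, and from day 4 to day 6 by 2.39 ± 0.19 (adjusted p = 4.06e-06), where 46.3% were called. Each of these steps had calls for 3 of the 6 members. The call on day 2 was lost on leaving out untreated replicate 1 (adjusted p = 0.106), untreated replicate 2 (0.0657), day 2 replicate 1 (0.0720) or day 2 replicate 2 (0.103).

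Ly6g was near the floor of detection until day 4 and rose on day 6. The untreated libraries had 0.425, 2.23 and 0.862 CPM, the day 2 libraries 0.304, 0.549 and 1.44, the day 4 libraries 1.20, 3.35 and 5.72 and the day 6 libraries 69.3, 56.1 and 65.0. The counts behind these values, summed over 3 libraries, were 25, 16, 70 and 1007. The day 6 libraries stood far above all others and differed little among themselves, while the earlier groups overlapped. On day 6 the log2 fold change was 5.73 ± 0.48 against untreated (adjusted p = 1.16e-06, 53.0-fold) and 4.20 ± 0.42 against day 4 (adjusted p = 2.08e-05). On day 4 it was 1.53 ± 0.60 against untreated and did not pass (adjusted p = 0.0611). That value passed with DESeq2 (adjusted p = 0.0182), without untreated replicate 2 (0.0230) and without day 4 replicate 1 (0.0124). The rise from day 2 to day 4 passed (2.06 ± 0.66, adjusted p = 0.0410), although the libraries overlapped, and it was lost in limma voom (0.0763), without a filter (0.0735) and on leaving out any of 7 libraries. The 21 mature neutrophil genes rose over the same days. They summed to 1630 to 2990 CPM in untreated cells, 2101 to 3801 on day 2, 5720 to 10040 on day 4 and 95430 to 185400 on day 6. On day 6, 21 of 21 were higher, where 35.0% of all genes were called higher. Their median log2 fold change was 6.26, above the values of Ly6g and Cd177. Day 6 replicate 2, with the lowest sum of neutrophil genes on that day, had the lowest Cd177 and Ly6g of day 6, and the part of neutrophil RNA in these values was not tested. The deposited length of Ly6g, 405 bases, equals its coding sequence, against 941 bases in its longest GENCODE transcript.

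Ly6c2 had the most counts of the members up to day 4 and fell on day 6, when Cd177 had more. It had 3413, 4548 and 4541 CPM in untreated cells, 4292, 4136 and 3316 on day 2, 4746, 4203 and 4022 on day 4 and 1902, 2225 and 1781 on day 6. The first 3 groups overlapped, and all 3 day 6 libraries were below every other library. Its log2 fold change was -0.09 ± 0.14 on day 2 (adjusted p = 0.837) and 0.05 ± 0.14 on day 4 (adjusted p = 0.795). It fell by 1.08 ± 0.15 on day 6 against untreated (adjusted p = 2.91e-05, 2.12-fold lower) and by 1.13 ± 0.15 against day 4 (adjusted p = 7.38e-05). With the counts of Ly6c1 and Ly6c2 added, the change on day 6 was -1.07 (adjusted p = 3.32e-05).

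Ly6c1, the near copy of Ly6c2, was measured at 47.6, 95.1 and 60.8 CPM in untreated cells, 50.7, 54.5 and 27.8 on day 2, 47.0, 35.3 and 33.8 on day 4 and 38.0, 52.9 and 42.4 on day 6. Untreated replicate 2 was the highest, and only the day 4 libraries all lay below the untreated ones, by a narrow margin. The log2 fold change was -0.62 ± 0.29 on day 2 (adjusted p = 0.357), -0.81 ± 0.29 on day 4 (adjusted p = 0.0412) and -0.61 ± 0.29 on day 6 (adjusted p = 0.0824). The call on day 4 was lost in limma voom (adjusted p = 0.0527), without a filter (0.0961), with only the groups compared (0.0543) and on leaving out any of 8 libraries (0.0506 to 0.178). The change on day 6 passed with DESeq2 (adjusted p = 0.0490), upper-quartile factors (0.0204) and library totals (0.00528). Ly6c1 made up 0.831% to 2.32% of the counts of Ly6c1 and Ly6c2 together, and most of the windows it shares with other genes are shared with Ly6c2. How many of its counts come from Ly6c2 RNA cannot be told apart here, so its values are uncertain.

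Ly6e rose by day 4 and stayed above untreated on day 6. Its levels were 465, 714 and 509 CPM in untreated cells, 693, 748 and 584 on day 2, 1533, 1508 and 1386 on day 4 and 953, 1691 and 900 on day 6. Untreated and day 2 libraries overlapped, the day 4 libraries were close together, and on day 6 replicate 2 stood above day 4 while replicates 1 and 3 stood below it. The log2 fold change against untreated was 0.26 ± 0.23 on day 2 (adjusted p = 0.663), 1.39 ± 0.23 on day 4 (adjusted p = 0.000593) and 1.07 ± 0.23 on day 6 (adjusted p = 0.00136). From day 4 to day 6 the change was -0.32 ± 0.23 (adjusted p = 0.269). Without day 6 replicate 2 that step was a fall of 0.67 on the log2 scale (adjusted p = 0.00365). Scaled by library totals, the rise on day 6 was 0.59 and did not pass (adjusted p = 0.0570).

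Ly6a was low in all groups, with 1.28, 5.01 and 2.44 CPM in untreated cells, 2.28, 2.01 and 1.05 on day 2, 8.25, 8.46 and 1.76 on day 4 and 5.33, 17.2 and 8.20 on day 6. The day 6 libraries were all above the untreated ones, while day 4 replicate 3 lay among the untreated libraries. The counts summed over 3 libraries were 62, 34, 125 and 174. Its log2 fold change was -0.73 ± 0.73 on day 2 (adjusted p = 0.715), 1.07 ± 0.63 on day 4 (adjusted p = 0.196) and 1.83 ± 0.62 on day 6 (adjusted p = 0.0211). The call on day 6 was lost without day 6 replicate 2 (log2 fold change 1.21, adjusted p = 0.119), without untreated replicate 1 (0.0748) or replicate 3 (0.0637), and with library totals (1.35, adjusted p = 0.0741). Without day 6 replicate 2, 3 of the 6 members were higher on day 6.

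Day 6 replicate 2 had the highest Ly6a and Ly6e of all 12 libraries, and its T cell and interferon-stimulated genes were highest too. The sum of 25 interferon-stimulated genes was 1056, 2318 and 1300 CPM in untreated cells, 1552, 1644 and 1079 on day 2, 3978, 3765 and 3465 on day 4 and 7839, 11340 and 7474 on day 6. In the untreated group replicate 2 was the highest for this sum as well as for Ly6a, Ly6c1, Ly6e and Ly6g. It was also the highest for Ly6c2, by a narrow margin (4548 CPM against 3413 and 4541). The mature neutrophil sum of that library was the highest of the group too, at 2990 CPM against 1630 and 2093. Of the 25 interferon-stimulated genes, 0 were called on day 2, 18 were higher on day 4 and 22 were higher and 1 lower on day 6. Among all genes tested, 1.45%, 42.4% and 67.9% were called on these days. The median log2 fold changes of the 25 were -0.11, 1.33 and 2.44. The T cell sum was 2.01 to 4.04 CPM in untreated cells, 1.52 to 2.23 on day 2, 2.55 to 4.52 on day 4 and 7.42 to 59.5 on day 6. Cd3e and Cd5 had 0 counts in day 6 replicates 1 and 3 and 14 and 4 counts in replicate 2. Of 8 endothelial genes, Emcn was at 0 in all groups and Cdh5, Kdr, Tek, Cldn5 and Plvap had group means of at most 0.349 CPM. Tie1 had 3.62 CPM in untreated cells and 0.599 on day 6 (adjusted p = 0.0130). Flt1 had 149.6, 155.9, 171.5 and 187.1 CPM at the 4 times and was called higher on day 6 (log2 fold change 0.32, adjusted p = 0.0301), so that the endothelial sum of 140.0 to 203.2 CPM was nearly all Flt1. The part of T cells, endothelium and interferon signalling in the levels of Ly6a and Ly6e was not tested.

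**Figure D2:**
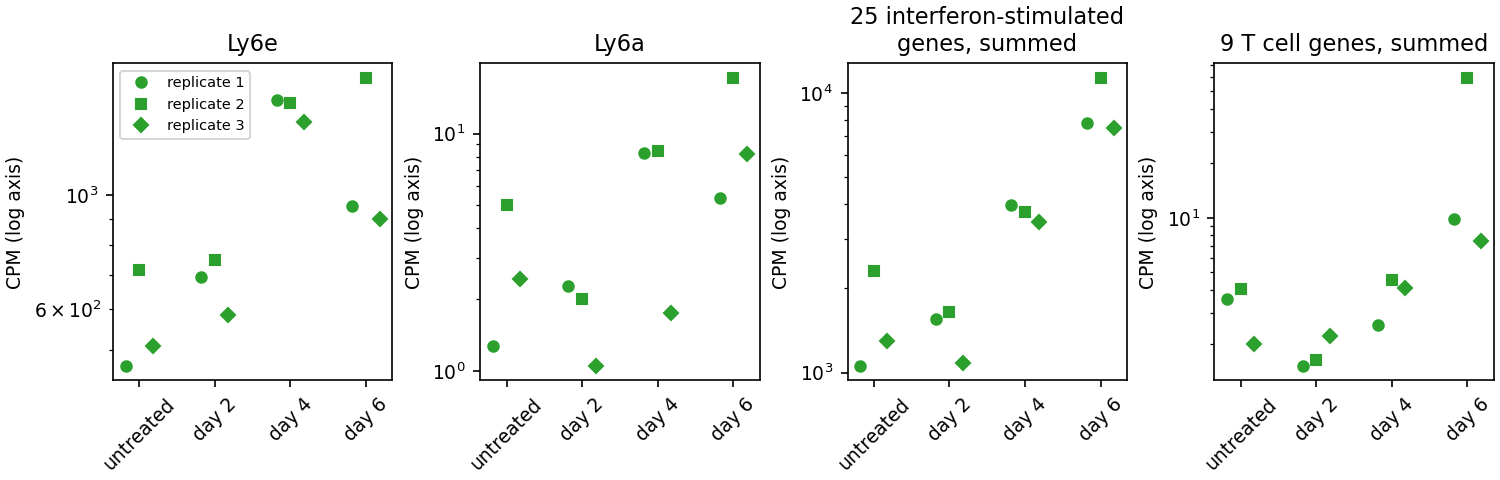
Levels of Ly6e and Ly6a and the summed levels of 25 interferon-stimulated and 9 T cell genes, in CPM on log axes, in the 12 libraries grouped by time on Dox. Day 6 replicate 2 is the highest point of all 4 panels, at 1691, 17.2, 11340 and 59.5 CPM.

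**Figure D3:**
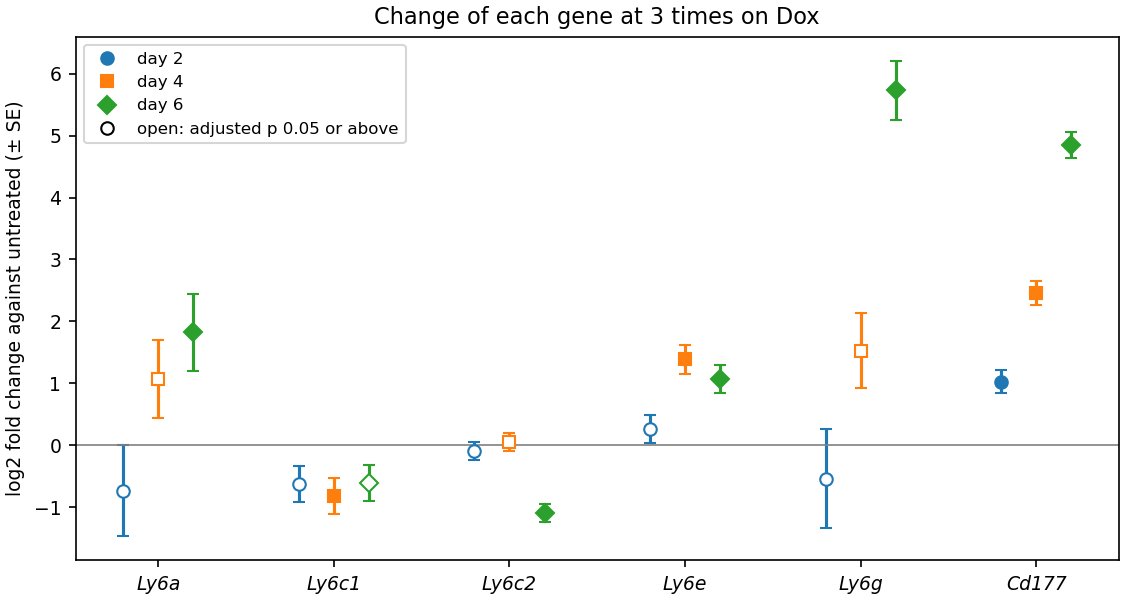
Log2 fold change of each member against untreated at 3 times on Dox, with SE from the edgeR fit of all 12 libraries; open symbols did not pass. On day 6, Ly6g (5.73) and Cd177 (4.85) lay above Ly6a (1.83) and Ly6e (1.07), and Ly6c2 (-1.08) lay below 0.

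Levels of different genes were compared per kilobase of the deposited gene length. Ly6c2 had 5203 ± 815 CPM per kilobase (SD, n = 3) in untreated cells and ranked 4 of the 12057 tested genes. On day 6 it had 2459 ± 286 and ranked 16. Cd177 went from 51.7 ± 9.12 CPM per kilobase (rank 1539) to 105 ± 6.00 (603), 284 ± 30.9 (178) and 1490 ± 403 (34). Ly6g went from 2.89 ± 2.32 (rank 9662) to 157 ± 16.6 on day 6 (rank 495). Ly6e moved within the upper ranks, from 245 ± 57.9 (rank 193) to 641 ± 34.2 on day 4 (rank 57) and 513 ± 192 on day 6 (rank 113). Ly6c1 ranked 2005 to 3808 and Ly6a 6125 to 10130. In untreated cells the order per kilobase was Ly6c2, Ly6e, Cd177, Ly6c1, Ly6a and Ly6g, where Cd177 and Ly6c1, and Ly6a and Ly6g, differed by less than their spread. On day 6 the order was Ly6c2, Cd177, Ly6e, Ly6g, Ly6c1 and Ly6a, and neighbours differed by more than the SD of either. The lengths bear on this for Ly6g (405 bases deposited, 941 in the longest GENCODE transcript) and Ly6c1 (1647 and 844). With the GENCODE lengths, a comparison added after seeing the data, Ly6g had 67.5 ± 7.16 CPM per kilobase on day 6. Ly6c1 then had 80.4 ± 29.0 in untreated cells, above Cd177 at 51.7 ± 9.12 but within its own spread, and the order of the 6 genes on day 6 was the same.

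Ly6c2 made up 93.0% to 94.6% of the summed level per kilobase of the 6 genes in the untreated libraries and 49.3% to 58.5% on day 6. Cd177 took 0.810% to 1.03% in untreated cells and 22.0% to 37.9% on day 6, and Ly6g took at most 0.0901% and then 2.92% to 3.64%. With the GENCODE lengths the share of Ly6g on day 6, from group means, was 1.49% in place of 3.37%, and that of Ly6c1 in untreated cells 1.47% in place of 0.743%. Ly6e took 3.69% to 5.08% in untreated cells, 9.68% to 10.5% on day 4 and 8.60% to 15.5% on day 6. The make-up changed little from untreated to day 2 and most from day 4 to day 6.

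**Figure D4:**
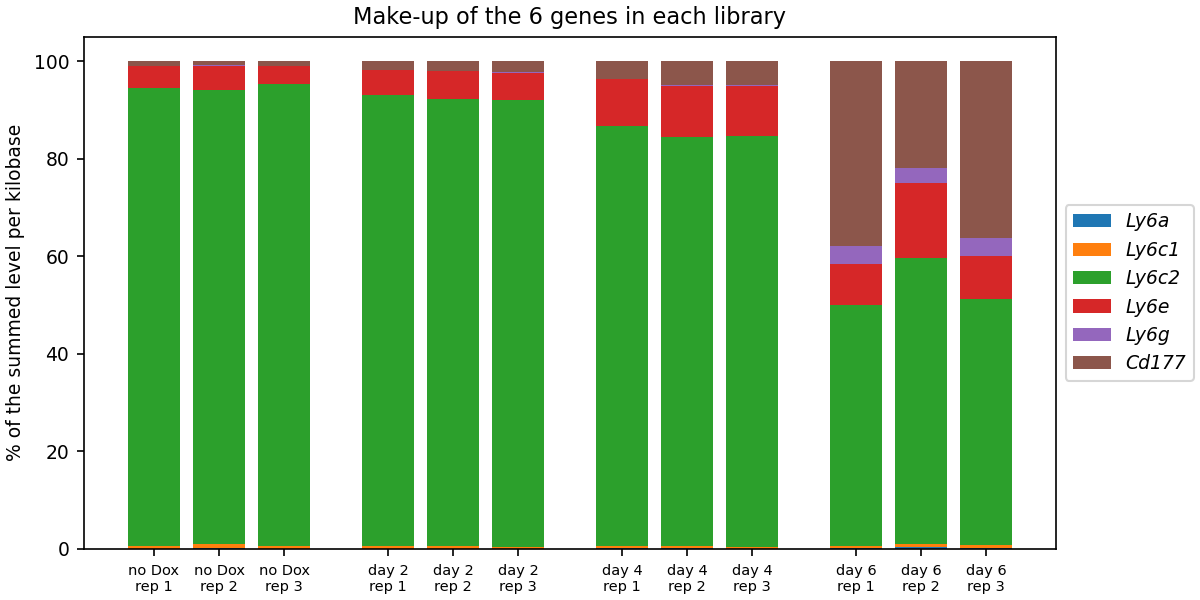
Share of each member in the summed level per kilobase of the 6 genes, in percent, for each library (bars stack to 100). Ly6c2 fills 93.0% to 94.6% of the untreated bars and 49.3% to 58.5% of the day 6 bars, where Cd177 fills 22.0% to 37.9%.

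Across the 12 libraries the log2 levels of Ly6g and Cd177 had a Pearson correlation of 0.92, those of Ly6a and Ly6e 0.73, and those of Ly6c2 with Ly6g -0.87 and with Cd177 -0.80. Ly6c1 and Ly6c2 correlated at 0.29. These values describe 12 libraries in 4 groups that share the time course. Each member was compared with 8955 other genes (8956 for Ly6a) that had a mean of at least 10 CPM over the 12 libraries. Predicted gene models and genes without a name were left out. Most like Cd177 were Ncf1, a subunit of the phagocyte NADPH oxidase (r = 0.998, n = 12), Gsn, the actin-severing gelsolin (0.996), and Tbc1d10b (0.996). The most like Ly6g were Retnlg (0.993), the gelatinase Mmp9 (0.992) and Plbd1 (0.991). Mmp9 had 21.0 CPM in untreated cells, 58.9 on day 4 and 2645 on day 6, so that it too rose chiefly on day 6, while Ncf1 had 227, 396, 749 and 2781 CPM at the 4 times, higher at each. Ly6c2 was most like Nnmt, Scamp3 and Soga1 (r = 0.966 for each), and Nnmt had 25.3 CPM in untreated cells and 3.97 on day 6. Ly6e was most like Ifi203, an interferon-inducible gene (0.985), Trappc1 (0.983) and Tspo (0.981). Ly6a was most like the interferon-inducible genes Cxcl10 (0.925), Irgm1 (0.903) and Igtp (0.900), of which Cxcl10 and Irgm1 are among the 25 interferon-stimulated genes summed above. Ly6c1 was most like Mrpl30 (0.877), Mrpl48 (0.855) and Ift52 (0.837).

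Of 42 other genes of the Ly6/uPAR family, 39 were in the files and 6 were tested: Ly6f, Ly6i, Ly6m, Ly6a2, Lynx1 and Plaur. Of the 6, 0 were called on day 2, 3 were higher on day 4 and 2 were higher on day 6, and 0 were lower at these times. Among all genes tested, 1.45%, 42.4% and 67.9% were called on these days, so that day 4 was near that share and day 6 under it. Their median log2 fold changes were 0.06, 0.63 and 0.54. Plaur, the urokinase receptor, had 7.94, 7.38 and 10.3 CPM in untreated cells, 11.2, 11.2 and 16.8 on day 2, 32.7, 49.1 and 40.1 on day 4 and 230, 137 and 213 on day 6. It rose in libraries that did not overlap, by 2.25 ± 0.25 on day 4 (adjusted p = 3.68e-05) and 4.49 ± 0.25 on day 6 (adjusted p = 5.05e-08), close in size to Cd177 on the same chromosome. Ly6m had 4 counts in the untreated group and 40 and 52 on days 4 and 6, with log2 fold changes of 3.25 ± 0.57 (adjusted p = 0.000733) and 4.01 ± 0.55 (adjusted p = 3.44e-05). Lynx1, known as a modulator of nicotinic receptors, was higher on day 4 (1.31 ± 0.43, adjusted p = 0.0287), from 6.66, 5.29 and 12.4 CPM in untreated cells to 21.0, 19.4 and 19.7. On day 6 its libraries had 2.56, 9.48 and 2.54 CPM, and the difference from untreated did not pass (adjusted p = 0.236). Without replicate 2 it was a fall of 1.66 on the log2 scale (adjusted p = 0.00731).

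Ly6a2 was named after its values were seen, because it was the most abundant relative. It lies between Ly6c2 and Ly6g at chr15:75131292-75135128, with 1160, 1451 and 1456 CPM in untreated cells and 1953, 1247 and 1798 on day 6. Its groups overlapped and its log2 fold change on day 6 was 0.30 ± 0.16 (adjusted p = 0.122). Without day 6 replicate 2 it was 0.47 (adjusted p = 0.00390), a call, so that 1 library decides it. In either case the change was small beside that of its neighbours Ly6c2, 2.12-fold lower, and Ly6g, 53.0-fold higher.

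Within 500 kb of the Ly6 genes on chromosome 15, 34 genes were annotated and 16 tested, 11 of them not members. Of these 11, 0 were called on day 2. There were 2 higher and 2 lower on day 4, then 1 higher and 3 lower on day 6, with a median log2 fold change of -0.45 on day 6. The gene called higher was Ly6m. Them6 went from 31.6, 51.9 and 40.7 CPM to 13.2, 29.1 and 10.3 on day 6 (log2 fold change -1.21 ± 0.31, adjusted p = 0.00500). Top1mt, a mitochondrial topoisomerase, went from 18.7, 18.9 and 16.2 to 3.41, 7.55 and 5.08 (-1.72 ± 0.25, adjusted p = 6.36e-05). Of all 12057 genes tested, 22.1% were called higher and 20.2% lower on day 4, and 35.0% and 32.9% on day 6. Calls of both directions were thus common among all genes and are not particular to this stretch.

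**Figure D5:**
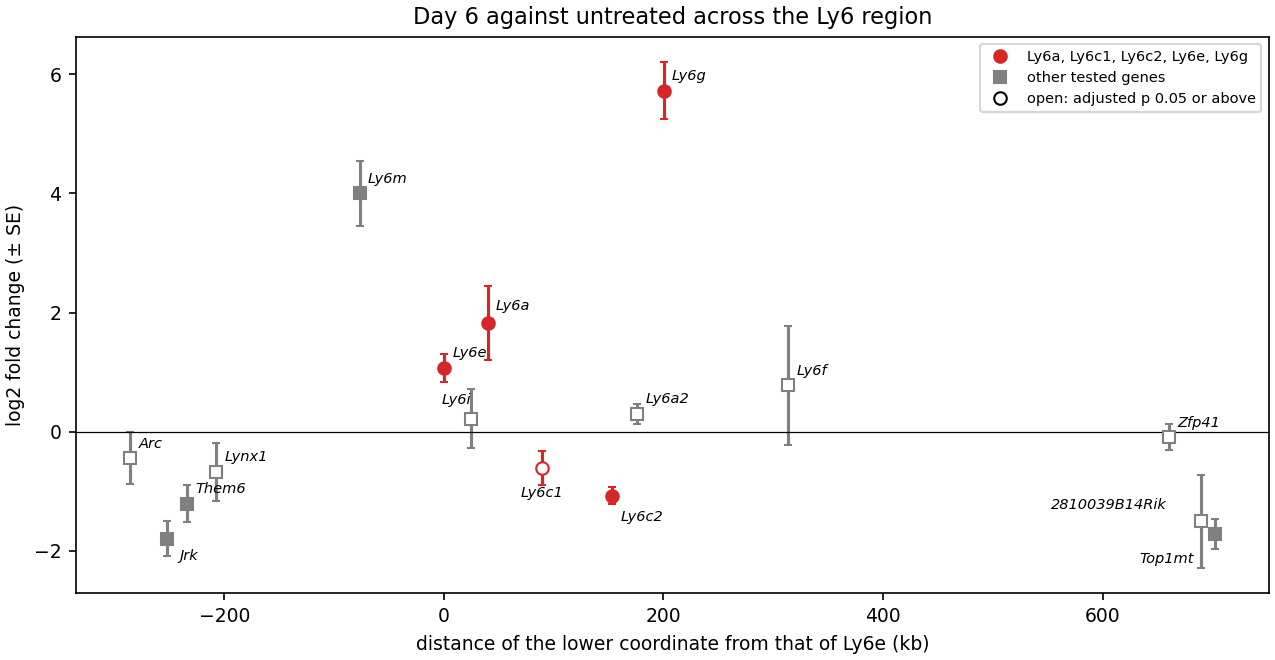
Log2 fold change of day 6 against untreated, with SE, for the 16 tested genes around the Ly6 genes on chromosome 15, by distance of the gene's lower coordinate from that of Ly6e in kb; open symbols did not pass. Ly6g (5.73) and Ly6m (4.01) are the highest points, and Ly6c2 (-1.08) lies between Ly6c1 and Ly6a2.

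The members' proteins need the GPI anchor, which is built on lipid in the endoplasmic reticulum and moved to the protein by a transamidase. Of 34 names listed for these steps and for later processing of the anchor, 31 were in the files and 29 were tested. Calls numbered 0 on day 2, 4 higher with 3 lower on day 4 and 7 higher with 4 lower on day 6, and the median log2 fold changes were 0.04, 0.02 and -0.12. These shares lie under those of all genes on days 4 and 6. On day 6, 8 were higher and 8 lower without replicate 2, and 4 were higher and 21 lower with library totals. Pgap1, which removes an acyl chain from the anchor after transfer, had 0.284, 0 and 0.287 CPM in untreated cells, 17.9, 20.6 and 24.7 on day 4 and 6.61, 12.4 and 9.37 on day 6. Its 4 untreated counts set the size of the log2 fold change, 5.52 ± 0.57 on day 6 (adjusted p = 3.28e-06). Pgap6, a phospholipase that acts on GPI-anchored proteins, rose by 2.07 ± 0.17 (adjusted p = 5.63e-07), from 44.8, 48.9 and 41.8 CPM to 225, 135 and 210. The mannosyltransferase gene Pigv (0.95 ± 0.15) and Pigx (0.91 ± 0.13) rose less. Those that fell most were Pigl (-0.74 ± 0.21), Dpm3 (-0.68 ± 0.14), Pign (-0.49 ± 0.14) and the transamidase subunit gene Pigk (-0.42 ± 0.16).

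Other surface markers gated together with Ly-6C, Ly-6G and Sca-1 were examined in the same libraries. Of 14, 11 were tested. Calls numbered 0 on day 2, 6 higher with 1 lower on day 4 and 7 higher with 1 lower on day 6. Among all genes tested, 1.45%, 42.4% and 67.9% were called on these days. The median log2 fold changes of the markers were 0.76, 2.45 and 2.32. Itgam, which encodes CD11b, had 22.7, 44.3 and 19.3 CPM in untreated cells, 203, 376 and 328 on day 4 and 2630, 1432 and 2766 on day 6. Like Cd177 it rose at both times, by 3.39 ± 0.45 (adjusted p = 0.000221) and 6.30 ± 0.51 (adjusted p = 1.86e-06). Cxcr2, the neutrophil chemokine receptor, stood at 4.96, 8.21 and 6.46 CPM in untreated cells and 6.60, 12.1 and 9.83 on day 4, and at 316, 243 and 302 on day 6. Like Ly6g it passed on day 6 (5.45 ± 0.25, adjusted p = 1.19e-08) and not on day 4 (0.54 ± 0.28, adjusted p = 0.143).

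Monocyte receptors followed another course. Csf1r, the receptor for macrophage colony-stimulating factor, had 58.4, 119 and 86.5 CPM in untreated cells, 699, 838 and 913 on day 4 and 284, 727 and 303 on day 6. Ccr2 had 35.0, 39.4 and 29.7 CPM, then 521, 638 and 741, and then 264, 773 and 327. For both genes day 6 replicate 2 was the high library, as for Ly6e. Their log2 fold changes on day 6 were 2.32 ± 0.39 (adjusted p = 0.000332) and 3.71 ± 0.39 (adjusted p = 1.07e-05), and neither step from day 4 to day 6 passed. Cx3cr1 (2.13 ± 0.31), Adgre1 (2.77 ± 0.29) and Cd48 (3.45 ± 0.48) were also higher on day 6 than in untreated cells. From day 4 to day 6, Adgre1 (-0.74 ± 0.25, adjusted p = 0.0296) and Cd48 (-1.04 ± 0.35, adjusted p = 0.0286) fell. The step of Cx3cr1 did not pass (-0.32 ± 0.28, adjusted p = 0.363). Kit, the receptor of stem cell factor, fell from 458, 458 and 471 CPM to 248, 91.9 and 203 on day 6 (-1.36 ± 0.29, adjusted p = 0.00161). The Fc receptor gene Fcgr3 had group means of 555 to 636 CPM and a log2 fold change of 0.04 ± 0.10 on day 6 (adjusted p = 0.765), and Cd34 and Flt3 did not pass.

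CD177 on neutrophils is known to associate with the integrin of Itgam and Itgb2, to bind PECAM1 and, in human cells, to hold proteinase 3. Itgb2 rose with Cd177 on day 6, from 264, 254 and 317 CPM in untreated cells to 3050, 1773 and 2556 (3.14 ± 0.22, adjusted p = 1.87e-07). Pecam1 fell from 82.8, 53.6 and 50.4 CPM to 19.8, 14.1 and 15.2 (-1.93 ± 0.36, adjusted p = 0.000611). Prtn3, the gene of proteinase 3, fell from 1590, 2296 and 1745 CPM to 946, 966 and 1087 (-0.91 ± 0.15, adjusted p = 0.000158). The integrin genes were thus higher and the genes of the other partners lower at the time when Cd177 was highest.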

How the data were processed

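Bulk RNA sequencing of 12 libraries was used. The values deposited by the authors are whole-number counts of reads per Entrez gene, without normalisation, beside each gene's length. The submitters' processing notes name featureCounts, the mm10 build, CASAVA 1.8.2, limma 3.22.0 and edgeR 3.8.2. The aligner, and whether counting used strand, is not given in the sources used here, so reads of overlapping antisense genes cannot be told apart. Symbols came from RefSeq (25275 identifiers) and GENCODE (18), and identifiers without a symbol (1886) took 0.487% to 1.06% of each library's counts.

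Counts were tested with edgeR 4.0.16 in R 4.3.3: filterByExpr, TMM factors (1.02 to 1.15, and 0.737, 0.847 and 0.749 at day 6), glmQLFit with robust dispersion on all 12 libraries and glmQLFTest, two-sided, with calls where the Benjamini-Hochberg adjusted p over all 12057 genes was under 0.05. The SE is the log2 fold change divided by the root of the F statistic. Alternatives used limma 3.58.1 and DESeq2 1.42.0. On simulated data for day 6 against untreated (11898 genes), 81% of 2-fold and 97% of 4-fold changes were recovered, each planted in 100 genes. The planted genes were above a minimum mean count, as many were raised as lowered, and no library was made to deviate. The rates therefore do not carry over to genes of low count such as Ly6a, or to the deviating day 6 replicate 2.

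The members, lists, tests and alternatives were chosen with earlier results of these data known. Genes named are the 6 members, other family genes called against untreated, the 4 largest rises and falls among called anchor genes at day 6, the tested surface markers and CD177 partners, called neighbours of at least 10 CPM and the 3 genes most like each member (Pearson correlation of log2 CPM). The comparison of day 6 with day 2 was added later and is not described. In place of protein identity, coding sequences of GENCODE M21 were aligned. No library duplicated another.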

Additional observations from a re-analysis of the deposited data

How the results depend on the processing

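Recomputed were the members' changes and the counts of called members, other Ly6/uPAR genes and anchor genes. This used 9 other settings and 12 omissions of a library. The changes of surface markers, CD177 partners, Them6 and Top1mt and the correlations were not recomputed in this way. Cd177 at days 4 and 6, Ly6g at day 6 and Ly6c2 at day 6 kept their calls in all 9 settings and 12 omissions. Upper-quartile factors and library totals moved the median of all genes at day 6 by -0.25 and -0.51 (log2), and the share of higher among called genes from 51.6% to 37.3% and 25.2%. At day 4 the share went from 52.2% to 41.2% and 39.1%.

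Members lower at day 4 (1) became 0 with limma voom, no filter and only the groups compared. Members higher at day 6 (4) became 2 with library totals. Members lower at day 6 (1) became 2 with DESeq2, upper-quartile factors and library totals, and lower from day 4 to day 6 (1) became 2 with library totals. Other Ly6/uPAR genes higher at day 6 (2) became 4 without a filter and 1 with a filter of 5 CPM. These counts come from unlike sets, as 18119 genes were tested without a filter and 10737 with that of 5 CPM. Anchor genes higher at day 2 (0) became 1 with DESeq2, library totals and only the groups compared. Higher at day 4 (4) became 2, higher at day 6 (7) became 4, and lower at day 6 (4) became 14 and 21 with upper-quartile factors and library totals. The cause of these moves was not tested.

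On leaving out 1 library, members higher at day 2 ranged from 0 to 1, lower at day 4 from 0 to 1, lower at day 6 from 1 to 2 and lower from day 4 to day 6 from 1 to 2. The last was 2 without day 6 replicate 2. Without that library, other Ly6/uPAR genes were 4 higher (range 2 to 4) and 1 lower (0 to 1) at day 6. In that fit 9 of them were tested in place of 6, among them Ly6g5b, called higher there and not tested in the main fit. Anchor genes without that library were 8 lower at day 6 (4 to 8) and 1 higher at day 2 (0 to 1). Anchor genes higher at day 4 ranged from 2 to 4.

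Near copies were also summed and the sum tested in place of each. Ly6c1 with Ly6c2 gave 0.0425 at day 4 against untreated and -1.12 from day 4 to day 6, where Ly6c1 had -0.81 and 0.20. Ly6a, Ly6c1, Ly6c2 and Ly6g together gave 0.0444 at day 4 and -1.02 at day 6 against untreated, and -1.07 from day 4 to day 6. A sum of 7 near copies, chosen after seeing the data, gave 0.0207, -0.57 and -0.60. These signs are opposite to those of Ly6a and Ly6g at day 6, since Ly6c2 holds most of the counts.

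Replicate numbers did not pair the samples: residuals of same-numbered libraries correlated at 0.006 on average over 18 pairs (-0.17 to 0.29). With the replicate block, 1 member call changed, as Ly6a from day 2 to day 4 passed (log2 fold change 1.71, adjusted p = 0.0434, against 0.0768 without it). Depth limits Ly6a and Ly6g before day 6, where 3 counts are 0.393 to 0.549 CPM. The gene length used moves levels per kilobase of Ly6g and Ly6c1 by over 1.5 times, as given with them above.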
